A study of Mus musculus with 9 samples.

Results

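The genes described here are the enzymes and the carrier of heme synthesis, measured by RNA-seq in hearts of mouse embryos at embryonic day 10.5. They were taken by name in pathway order: Slc25a38, Alas1, Alas2, Alad, Uros, Urod, Cpox, Ppox and Fech. All 9 were among the 14011 genes of the expression table.

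The study deleted Ctcf, which encodes a DNA-binding protein that organises chromatin, with Nkx2.5-Cre, a driver active in cardiac progenitors and their derivatives. There were 3 groups of 3 libraries, each library from a pool of 6 hearts. Control hearts carried no Cre; their labels give the genotype Ctcf fl/fl, whereas the study's methods give Ctcf fl/+. Heterozygous hearts were Ctcf fl/+; Nkx2.5-Cre/+ and homozygous mutant hearts were Ctcf fl/fl; Nkx2.5-Cre/+. All groups thus shared a floxed Ctcf allele, and the presence of Cre could not be told apart from the deletion when either Cre-carrying group was set against the control. Whole hearts were used, so the RNA also came from cells other than cardiomyocytes, including blood in the chambers. Whether the driver was active in blood cells was not tested.

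Heme is made in a chain that starts and ends in the mitochondrion. Slc25a38 is a mitochondrial carrier that brings in glycine, and an ALAS enzyme joins glycine to succinyl-CoA in the rate-limiting step. Alas1 encodes the housekeeping form present in all tissues, and Alas2, on the X chromosome, the form of erythroid cells, which make heme for hemoglobin. The remaining enzymes act downstream of both, and in the embryo the primitive erythrocytes that circulate through the heart are the cells that make the most heme.

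To show the regulatory sequence beside the expression values, the 250 bases before the start of each gene were read from the RefSeq promoter table. It held 11 such windows for 8 of the 9 members and none for Fech. All 11 matched NCBIM37, the build of the expression table, exactly once, and coordinates are given in that build. The windows of Alas2 and Cpox are shown because they hold the binding motif of GATA factors, and that of Urod because it holds none while its transcript rose as much. Capitals mark GATAA or GATAG preceded by an A or a T, on either strand. Alas2 lies at chrX:146981710-146981917 (plus strand, the last 42 bases of the window, annotated as exon, left out), Cpox at chr16:58670071-58670320 (plus strand) and Urod at chr4:116667019-116667268 (minus strand, shown 5′ to 3′ for the gene).
Alas2: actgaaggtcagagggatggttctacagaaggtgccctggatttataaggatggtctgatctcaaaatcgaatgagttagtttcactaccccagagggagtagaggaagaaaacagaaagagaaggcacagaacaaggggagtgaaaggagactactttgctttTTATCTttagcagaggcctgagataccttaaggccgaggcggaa
Cpox: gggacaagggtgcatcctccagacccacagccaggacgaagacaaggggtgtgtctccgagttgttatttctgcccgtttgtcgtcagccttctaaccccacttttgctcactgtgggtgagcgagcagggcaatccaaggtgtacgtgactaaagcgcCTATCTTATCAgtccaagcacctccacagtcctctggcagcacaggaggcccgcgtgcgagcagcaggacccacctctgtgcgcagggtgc
Urod: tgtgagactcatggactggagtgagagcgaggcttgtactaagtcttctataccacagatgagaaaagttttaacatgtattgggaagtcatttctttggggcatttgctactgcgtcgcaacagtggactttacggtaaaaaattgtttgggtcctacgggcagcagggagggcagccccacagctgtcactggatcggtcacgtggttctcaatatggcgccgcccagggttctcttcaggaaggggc

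The match in Alas2 began 86 bases before the RefSeq start and those in Cpox, which share a base, 91 and 86 bases before it. Uros had no match before its upstream start and 2 before its downstream start, which the table places within the gene. In all, 3 of the 11 windows held a GATA match, or 27.3%, beside 26.5% of the 32851 windows in the table. The motif CCNCNCCC on either strand, a relaxed form of the box bound by the erythroid factor KLF1 and by related zinc finger proteins, was in 7 of the 11, or 63.6%, beside 45.9% of all windows. The windows are not separate counts, since the 2 Alad windows overlap and share matches. All matches of this motif in Alas2 lay in the 42 bases annotated as exon. Annotated exons also covered at least 172 and 196 bases of the Alas1 windows and 196 and 116 of the Uros windows. The 2 Alas1 windows held no GATA match. A match is a description of the letters and was not tested for binding.

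Libraries held 4294537 to 11629365 reads over the 14011 genes. Values below are the deposited normalised read counts, scaled to libraries of 1000000 reads. The number of a member's reads in a library ran from 124 for Slc25a38 to 6995 for Alas2. The columns taken as control are named Het in the table, whereas HET in the sample titles stands for the hearts with Cre. They were assigned by elimination: another set of columns is named DH, read here as the double heterozygous hearts that the labels' protocol lists beside control and KO, and the third set is named KO. The labels do not state this match, on which every value given below for control or heterozygous hearts rests. The study's own gene averages for control and for heterozygous hearts, checked over its lists of called genes, were the same as the means of the columns assigned to them. The numbers in the column names of control and heterozygous libraries could not be tied to those in the sample titles, so these libraries are named here by their total reads. Ctcf itself was at 121 ± 0.837 in control, 97.3 ± 3.26 in heterozygous and 81.4 ± 2.85 in homozygous hearts (SD, n = 3), so the homozygous hearts kept 67.0% of the control level. Both groups were called lower than control (log2 -0.32 and -0.57, adjusted p = 0.0467 and 2.9e-05, limma). This is RNA of whole hearts. By immunostaining, the study found no mutant cardiomyocyte with CTCF protein at this stage, while endocardium kept it. Cardiomyocyte markers were abundant in every library, with 12 genes summing to 21513 to 28554. One control library, that of 8457617 reads, stood apart by its 10 liver and endoderm markers, which summed to 974 there, to 66.5 and 78.2 in the other control libraries and to 8.77 to 85.0 in the rest.

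The first comparison asked how the transcripts of the pathway differed between homozygous mutant and control hearts. Of the 9 members, 8 rose and 1, Alas1, did not pass the test. The increases lay between 1.29-fold for Slc25a38 and 1.61-fold for Alad, and in all 8 every homozygous library lay above every control library. Over all genes tested, limma with Benjamini-Hochberg adjustment called 15.2% at an adjusted p under 0.05 and 7.19% as higher in the homozygous hearts, and 16.6% had every homozygous library above every control library. The median log2 fold change of the 9 members was 0.55, beside -0.0011 over all genes. These were bulk samples, so a larger number of erythroid cells, more RNA per erythroid cell and a change in other cells could not be told apart.

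**Figure D1:**
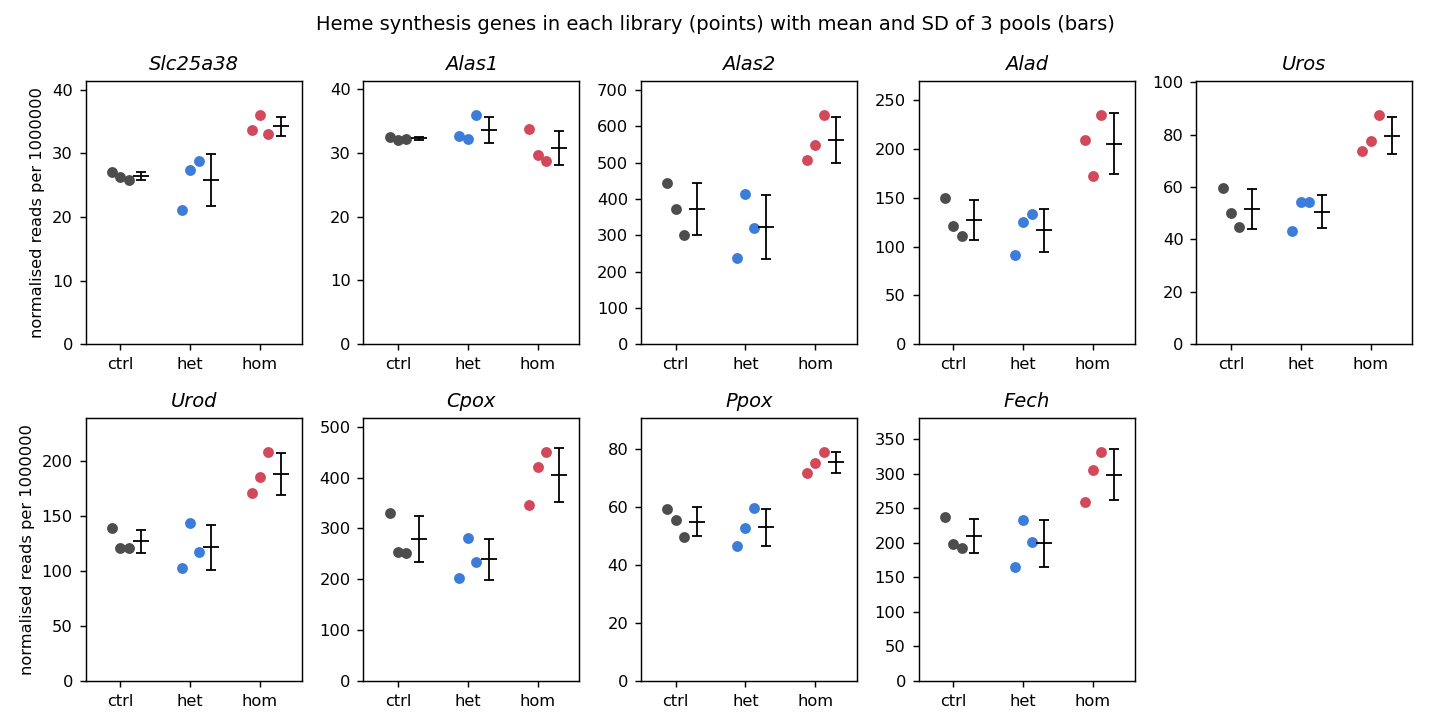
Normalised reads per 1000000 (y axis, starting at 0) of each heme synthesis gene in control (ctrl), heterozygous (het) and homozygous (hom) libraries; points are libraries and bars the mean with SD of 3 pools. Homozygous libraries lie above all others for every gene but Alas1, where they run from 28.8 to 33.7 among control values of 32.0 to 32.5.

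Slc25a38 (chr9:120019492-120033622), the glycine carrier that supplies the first step, was at 27.1, 26.3 and 25.8 in control libraries (total reads 8457617, 9654014 and 6698891). It was at 21.1, 27.4 and 28.7 in heterozygous libraries (total reads 9896345, 7946683 and 4294537), and at 33.7, 36.0 and 33.1 in homozygous replicates 1, 2 and 3. The same order of libraries is used for every gene below. The homozygous libraries stood above the other 6, and the increase over control was 0.37 on the log2 scale (SE 0.11, adjusted p = 0.0331, limma), the smallest of the 8. It was lost when any 1 control or homozygous library was left out, although its size stayed between 0.34 and 0.39.

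Alas1 (chr9:106135786-106150457), the housekeeping enzyme of the rate-limiting step, was at 32.5, 32.0 and 32.2 in control, at 32.6, 32.1 and 35.9 in heterozygous and at 33.7, 29.7 and 28.8 in homozygous libraries. The 3 groups overlapped. The homozygous hearts differed from control by -0.07 on the log2 scale (SE 0.08, 95% interval -0.25 to 0.11, adjusted p = 0.623, limma), or 0.838 to 1.08 of the control level. An exon of the antisense gene 4930500F10Rik shares 114 bases with those of Alas1, and that gene was not used here.

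Alas2 (chrX:146981918-147005181), the erythroid enzyme of the same step, was at 442, 372 and 300.2 in control libraries, at 236, 413 and 319 in heterozygous and at 507, 549 and 630.0 in homozygous libraries. Homozygous libraries were the highest 3 of the 9, while control and heterozygous libraries were interleaved and varied widely. Alas2 rose 1.53-fold over control (95% interval 1.18 to 1.96, adjusted p = 0.0278, limma). This call was lost under 9 of 23 alternatives, among them DESeq2 and leaving out the control library of 9654014 or of 6698891 reads or homozygous replicate 2 or 3. Alas2 shares 311 of its 2403 exonic bases with Apex2, a DNA repair gene on the opposite strand, and whether reads were counted by strand is not given in the sources used here. Apex2 was at 20.2 ± 1.07 in control and 25.2 ± 1.69 in homozygous hearts (SD, n = 3) and was itself called higher, by 0.31 on the log2 scale (adjusted p = 0.0366, limma).

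The 2 ALAS transcripts were also set against each other within a library. The log2 level of Alas2 minus that of Alas1 was 3.75, 3.52 and 3.20 in control, 2.84, 3.67 and 3.14 in heterozygous and 3.89, 4.19 and 4.43 in homozygous libraries. Every homozygous library lay above every other library. The mean difference from control was 0.68 and from heterozygous hearts 0.96 (both two-sided exact permutation p = 0.1, the smallest that 3 against 3 allows, and 0.15 adjusted over the 3 comparisons). Heterozygous hearts differed from control by -0.27, with overlapping libraries (exact permutation p = 0.4). That difference depended on single libraries: it was -0.09 without the 9896345-read heterozygous library, -0.50 with no overlap without the 7946683-read one, -0.15 without the 8457617-read control library and -0.42 without the 6698891-read one. Per kilobase of exon, Alas2 was at 20.7 times the level of Alas1 in control hearts and at 32.8 times in homozygous hearts, as ratios of group means. Exons of all annotated transcripts were joined for this length. Without division by length the ratios were 11.5 and 18.3.

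Alad (chr4:62170203-62180952) joins 2 molecules of aminolevulinate into porphobilinogen. It was at 150.2, 122 and 111 in control, at 91.9, 125 and 133 in heterozygous and at 209, 172 and 235 in homozygous libraries. The homozygous libraries did not overlap with the others, and the increase over control, 1.61-fold (95% interval 1.30 to 1.99, adjusted p = 0.00681, limma), had the highest estimate of the 9 members, with an interval that held the estimates of 6 of the other members that rose. The call was lost in limma without a trend.

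Uros (chr7:140877926-140901755), which forms the porphyrin ring, was at 59.8, 50.3 and 45.0 in control, at 43.2, 54.3 and 54.3 in heterozygous and at 73.9, 77.6 and 87.4 in homozygous libraries. Uros had no overlap between homozygous and other libraries and the smallest adjusted p of the members against control (1.54-fold, 95% interval 1.31 to 1.82, adjusted p = 0.00273, limma).

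Urod (chr4:116662570-116667018) removes carboxyl groups from the ring in the cytosol. It was at 139, 121 and 121 in control, at 103, 144 and 117 in heterozygous and at 171, 185 and 208 in homozygous libraries. With no overlap, the increase over control was 1.48-fold (95% interval 1.26 to 1.73, adjusted p = 0.00387, limma). Cpox (chr16:58670321-58680504), which carries the pathway back into the mitochondrion, was at 331, 253 and 252 in control, at 202, 282 and 233 in heterozygous and at 347, 420.5 and 450.2 in homozygous libraries. Its lowest homozygous library stood close to the highest control library, and it rose 1.46-fold (95% interval 1.2 to 1.77, adjusted p = 0.0129, limma). The call was lost in limma without a trend and on leaving out either the 9654014-read or the 6698891-read control library or homozygous replicate 3.

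Ppox (chr1:173206121-173211317) oxidises the ring to protoporphyrin. It was at 59.5, 55.7 and 49.6 in control, at 46.7, 52.8 and 59.6 in heterozygous and at 71.9, 75.4 and 79.0 in homozygous libraries, without overlap. The increase was 1.37-fold (95% interval 1.2 to 1.57, adjusted p = 0.00566, limma). Ppox shares 791 of its 4515 exonic bases with B4galt3, a sugar transferase gene on the opposite strand, whose own log2 difference was 0.04 (adjusted p = 0.788). Fech, the ferrochelatase that inserts iron into the ring, was at 238, 199 and 192 in control, at 165, 232 and 201 in heterozygous and at 259, 305 and 331 in homozygous libraries. It rose 1.42-fold (95% interval 1.19 to 1.70, adjusted p = 0.0125, limma), a call that was lost in limma without a trend and on leaving out the 6698891-read control library or homozygous replicate 3.

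The second comparison set homozygous against heterozygous hearts, both of which carried Cre, so that it varied the dose of Ctcf alone among the labelled alleles. The same homozygous libraries entered both comparisons. Again 8 of the 9 members were higher and Alas1 did not pass, beside 13.6% of all genes called and 6.87% called higher; every homozygous library lay above every heterozygous library in these 8, as in 15.3% of all genes. The median log2 fold change of the members was 0.64, beside -0.0045 over all genes. Alas2 had the highest estimate, 1.78-fold (95% interval 1.38 to 2.29, adjusted p = 0.00652, limma), followed by Alad at 1.76-fold and Cpox at 1.70-fold. Slc25a38 again had the lowest of the 8, 1.33-fold (adjusted p = 0.0212, limma), a call lost on leaving out the 9896345-read heterozygous library or homozygous replicate 2. Without a trend in limma, the calls of Slc25a38, Alas2 and Fech in this comparison were lost. Alas1 was at 0.917 of the heterozygous level (95% interval 0.808 to 1.04, adjusted p = 0.368).

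The third comparison asked what loss of 1 allele, together with the presence of Cre, did to the pathway. None of the 9 members passed limma's test between heterozygous and control hearts, and none did so at an unadjusted p under 0.05, in limma, edgeR or DESeq2. Few genes were called at all, 0.143% of those tested. The log2 differences ran from -0.22 for Cpox (95% interval -0.50 to 0.06) to 0.05 for Alas1 (-0.13 to 0.24), with a median of -0.07. For Alas2 the difference was -0.22 with an interval of -0.59 to 0.14. The heterozygous library of 9896345 reads was the lowest of its group for 8 of the 9 members, all but Alas1, and leaving it out turned the sign of 6 of the 8 negative differences. Leaving out the 7946683-read heterozygous library instead moved the median to -0.19, and 2 members then had an unadjusted p under 0.05 (limma), with none called.

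**Figure D2:**
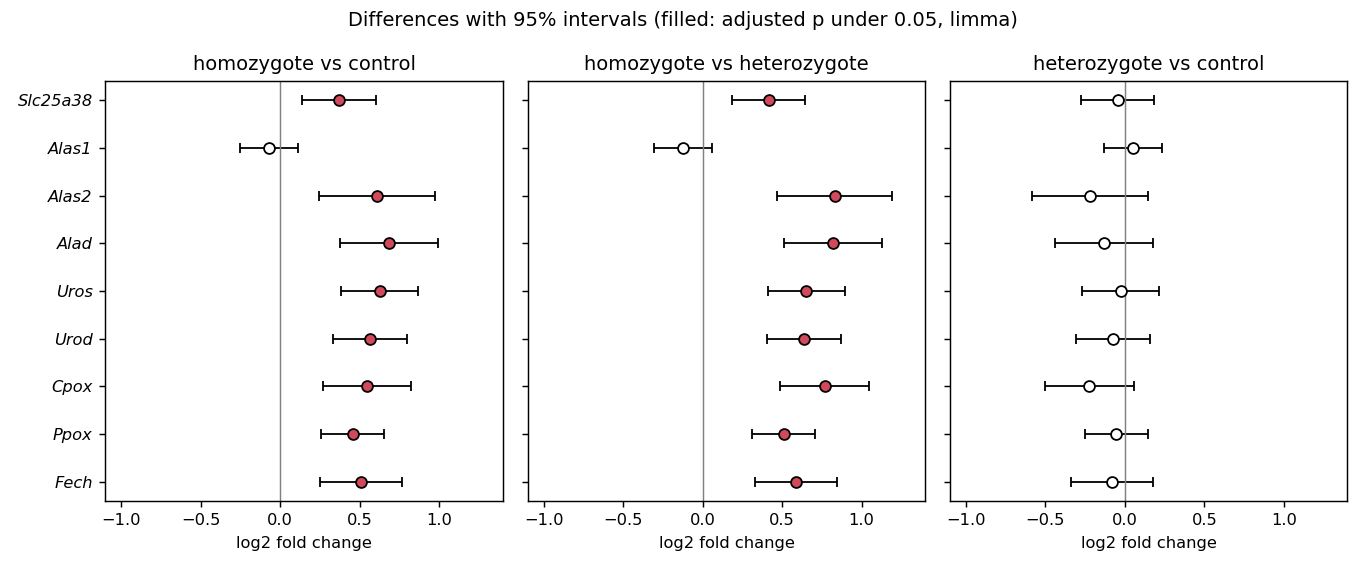
Log2 fold changes (x axis) of each gene in the 3 comparisons, with 95% intervals; filled points passed an adjusted p under 0.05 in limma. In both comparisons with homozygous hearts every gene but Alas1 is filled and positive, and between heterozygous and control hearts every interval crosses 0.

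Levels differed widely between the steps. Per kilobase of exon, Alas2 had the highest mean among the members in control hearts, 155 ± 29.6 (SD, n = 3, normalised reads per 1000000 and kilobase), followed by Cpox at 87.5 ± 14.1, Fech at 72.2 ± 8.48, Alad at 68.1 ± 10.9 and Urod at 49.0 ± 4.0. Uros at 14.4 ± 2.10, Ppox at 12.2 ± 1.11, Slc25a38 at 9.60 ± 0.232 and Alas1 at 7.48 ± 0.0649 followed far below. The ranges over control libraries overlapped for Cpox and Fech, for Fech and Alad and for Uros and Ppox, although each of these pairs had the same order in every control library. The ranges of the other neighbours in this order did not overlap. The exon length used joins all annotated transcripts of a gene, and the order rests on it. It is 4515 bases for Ppox, 3576 for Uros, 2591 for Urod and 1871 for Alad. Their longest protein-coding transcripts have 1821, 1762, 1489 and 1247 bases. Both lengths are the same for Cpox (3186) and Fech (2901), and levels per transcript length were not computed. The order of the 9 means was the same in homozygous hearts except that Alad, at 109.8 ± 16.7, stood above Fech, at 103 ± 12.7, with overlapping ranges.

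A further question was how the pathway stood relative to the erythroid cells in these hearts. Of 29 erythroid markers tested, 23 were higher in homozygous than in control hearts and none lower, beside 7.19% of all genes called higher, with a median log2 fold change of 0.62. Against heterozygous hearts 27 of 29 were higher, beside 6.87% of all genes, with a median of 0.78. The embryonic globins Hbb-bh1 and Hba-x rose by 0.77 and 0.80 (adjusted p = 0.0113 and 0.0109, limma), the erythroid factors Klf1 and Gata1 by 0.73 and 0.59 (0.00452 and 0.0311), the Rh antigen gene Rhd by 0.81, the erythropoietin receptor gene Epor by 0.63 and the carbonic anhydrase gene Car2 by 0.65. Hbb-b1, a globin of adult type that was chosen after its values were seen, had the lowest estimate of this list against control, -0.53 (adjusted p = 0.382). The 7 hemoglobin genes took 3.66 to 5.36% of the reads in control libraries, 2.93 to 4.78% in heterozygous and 6.19 to 7.94% in homozygous libraries.

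The mean log2 level of the 29 markers was 7.81, 7.48 and 7.38 in control, 7.0, 7.71 and 7.30 in heterozygous and 7.92, 8.13 and 8.33 in homozygous libraries. The homozygous libraries thus stood above all others in this mean as well. Within the control group, the library with the highest marker mean was also the highest for all 9 members and the one with the lowest mean the lowest for 7. The corresponding counts were 4 and 8 in the heterozygous group and 7 and 6 in the homozygous group. No share over all genes was computed beside these counts, and members that vary together are not separate agreements. Alas1 varied little between control libraries, from 32.0 to 32.5.

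**Figure D3:**
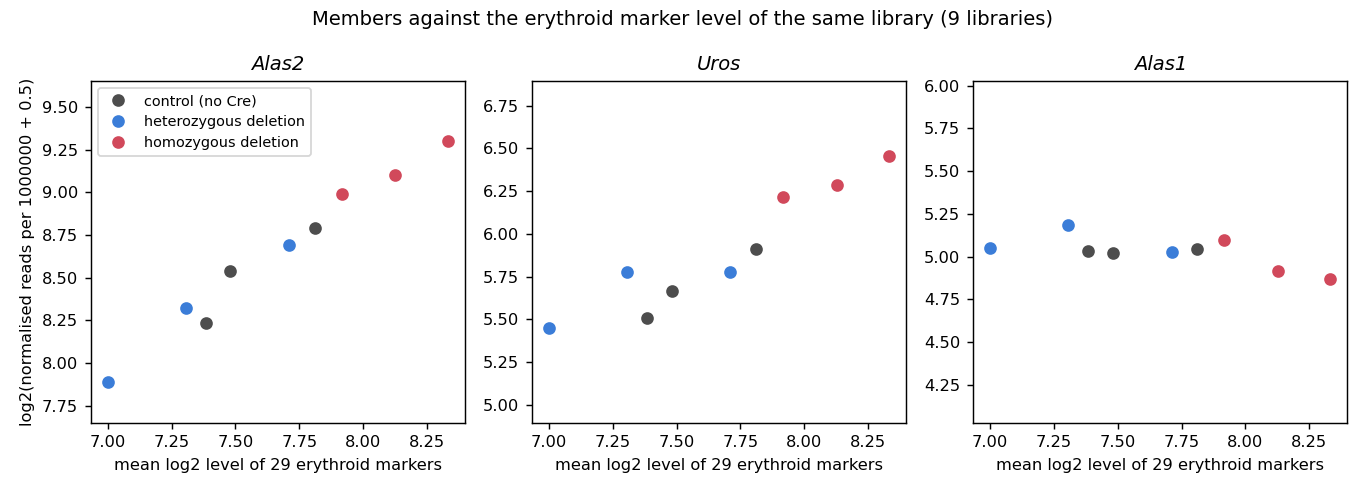
Log2 level of Alas2, Uros and Alas1 (y axes, each spanning 2 log2 units) against the mean log2 level of 29 erythroid markers in the same library (x axis); points are the 9 libraries, coloured by genotype. Alas2 and Uros rise along the marker level, from 7.0 to 8.33, across all genotypes, and Alas1 does not rise.

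Relative to this marker mean, Alas2 was nearly level over the 9 libraries, at 0.98, 1.06 and 0.85 on the log2 scale in control, 0.89, 0.98 and 1.02 in heterozygous and 1.07, 0.98 and 0.97 in homozygous libraries. The homozygous and control means differed by 0.04 (exact permutation p = 0.7), with overlapping libraries. Urod and Cpox differed from control by -0.0023 and -0.02 on this relative scale, Uros by 0.06, Fech by -0.06, Alad by 0.12, Ppox by -0.11 and Slc25a38 by -0.20, all with overlap and exact permutation p of 0.3 or more. The overlap depended on single libraries. Without the 8457617-read control library, Slc25a38 differed by -0.30, Ppox by -0.18 and Fech by -0.09, each without overlap. Without the 9654014-read control library, Uros differed by 0.08 without overlap. With quantile normalization, Uros differed by 0.17 without overlap (exact permutation p = 0.1), and with the hemoglobin genes left out of the markers Fech differed by -0.09 without overlap (exact permutation p = 0.1). The level of Alas1 relative to the markers was -2.77, -2.46 and -2.35 in control, -1.95, -2.68 and -2.12 in heterozygous and -2.82, -3.21 and -3.46 in homozygous libraries. The homozygous libraries lay below all others, with a difference from control of -0.64 (exact permutation p = 0.1, the smallest possible), which became -0.54 with overlap under quantile normalization (exact permutation p = 0.2). Alas1 itself differed by -0.07, while the marker mean was 7.56 in control and 8.13 in homozygous hearts. The lower relative level of Alas1 thus mostly restates the higher markers. Fech lay lower in every homozygous than in every heterozygous library on this scale, by a difference of -0.20 (p = 0.1, exact permutation), and overlapped under quantile normalization (-0.14, exact permutation p = 0.2). None of the 27 tests on this scale, of 9 members in 3 comparisons, had an adjusted p under 0.72, and this design could not reach 0.05.

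**Figure D4:**
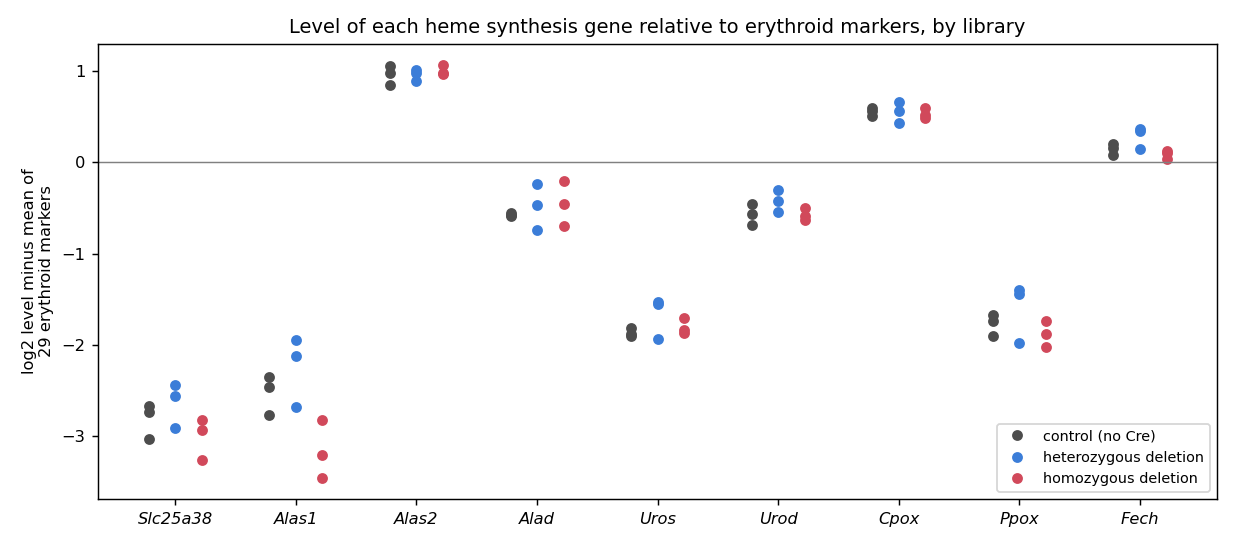
Log2 level of each gene minus the mean log2 level of 29 erythroid markers in the same library (y axis); points are libraries, coloured by genotype. As scaled here, the genotypes overlap for every gene except Alas1, where homozygous libraries lie lowest, and Fech, where homozygous libraries lie below heterozygous ones. Alas1 itself did not rise in homozygous libraries, while the marker mean did.

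With the marker mean entered as a covariate in the fit of all genes, no member passed limma's test in any comparison. Between homozygous and control hearts the 9 log2 differences then ran from -0.00026 for Alas1 to 0.32 for Alad, with a median of 0.20, and Uros, Urod and Ppox had an unadjusted p under 0.05 (limma, adjusted p = 0.185, 0.195 and 0.251). Alas2 was at 0.0086 (SE 0.09). The number of genes called in that comparison fell from 2133 to 367. The marker means of homozygous libraries did not overlap with those of the others, so genotype and marker level could be separated only through the spread within groups.

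Markers of other cell types were read in the same libraries. The 8 macrophage markers summed to 23.0 to 31.1 in control, 19.3 to 20.8 in heterozygous and 17.9 to 35.9 in homozygous libraries, and limma called none of the 8 in any comparison (at an unadjusted p under 0.05 there was 1 between homozygous and control hearts and 2 in each of the other comparisons, with median log2 differences of 0.32 for homozygous against heterozygous and -0.36 for heterozygous against control hearts). Megakaryocyte and platelet markers, from a lineage that shares GATA1 with erythroid cells, summed to 74.3 to 86.3, 66.2 to 81.9 and 81.5 to 89.0, with 0 of 8 called between homozygous and control hearts by limma, and 0 at an unadjusted p under 0.05. The liver and endoderm markers, of which 4 had 0 reads in at least 1 heterozygous library and 2 in at least 1 homozygous library, had a median log2 difference of -1.50 between homozygous and control hearts and of 0.74 between homozygous and heterozygous hearts, where 10 of 10 were positive and 1, Serpina1a, named after its values were seen, was called higher. Between heterozygous and control hearts their median was -2.42, with 0 of 10 called by limma and 9 at an unadjusted p under 0.05. The control group holds the 8457617-read library in which they summed to 974. Without that library, which was also the highest in all 9 members among controls, 7 of the 9 members passed against control and the median log2 fold change was 0.63. The part of other cell types in the members' values was not tested otherwise.

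The genes most like Alas2 over the 9 libraries, among 9846 with a mean of at least 10, were the alpha globin Hba-a1 (Pearson r = 0.995), 2010011I20Rik, which is Fam210b, a mitochondrial protein of erythroid iron use (0.990), the lymphoid and erythroid factor Ikzf1 (0.989), the membrane skeleton gene Epb4.2 (0.989) and the embryonic globin Hbb-y (0.988). The other members that rose had r with Alas2 from 0.887 for Slc25a38 to 0.974 for Fech, and Alas1 had -0.59. The genes most like Alas1 were Gabbr1, Slc4a3, Ext1, Igf2as and Th1l, with r from 0.913 to 0.925, and none of them is a gene of the heme pathway. These correlations describe 9 libraries that share 3 genotypes.

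The wider handling of heme and iron was described with lists of genes. Among 20 carriers of porphyrins, heme and iron and partners of the pathway, 8 rose and 1 fell between control and homozygous hearts, beside 7.19% of all genes called higher, with a median log2 fold change of 0.16. Hebp2 and Hebp1, which bind heme, rose by 0.80 and 0.52 (adjusted p = 0.00221 and 0.00895, limma), Abcg2, an exporter of porphyrins, by 0.49 (0.00597), Tmem14c, which moves the porphyrin precursor within the mitochondrion, by 0.49 (0.00949) and the mitochondrial carrier Slc25a39 by 0.37 (0.0166). Flvcr2, first described as a heme transporter, fell by 0.84 (adjusted p = 0.0125, limma), from a low level of 7.21 to 3.83. Against heterozygous hearts, 9 of the 20 were higher and 1 lower, beside 6.87% of all genes higher.

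Of 11 genes of heme breakdown and heme sensing, 1 rose and none fell in limma's test, a share near the 7.19% of all genes called higher. It was Blvrb, a biliverdin reductase abundant in red cells, at 56.1 in control and 98.4 in homozygous hearts, a log2 fold change of 0.82 (adjusted p = 0.00105, limma). Hmox1, the inducible heme oxygenase, was at 20.7 and 21.8 (adjusted p = 0.838); it is given as the entry enzyme of heme breakdown and was chosen after its values were seen. Of 13 genes of cellular iron uptake, storage and control, 4 rose and none fell: the ferritin chains Fth1 and Ftl1, by 0.52 and 0.41, the ferrireductase Steap3, by 0.44, and the ferritin receptor Ncoa4, by 0.29 (adjusted p = 0.00876, 0.00949, 0.0357 and 0.0462, limma).

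The lists that follow are described beside the 15.2% of all genes called in either direction and 7.19% called higher. Of 15 genes of iron-sulfur cluster assembly, the other main use of mitochondrial iron, 3 rose, namely the scaffold Iscu by 0.43, Glrx5 by 0.44 and Lyrm4 by 0.44, and 2 fell, among them Bola3 by 0.59 on the log2 scale; the median was 0.05. Of 13 genes of heme a and cytochrome c maturation and heme proteins, Cycs and Cyb5 rose by 0.23 and 0.24, and Cox15 and Cyb5r3 fell by 0.26 and 0.24, with a median of 0.0024. Among 12 erythroid transcription factors, 5 of which rose, Lyl1 had 0.52, Tal1 0.45 and Nfe2 0.55 beside Klf1 and Gata1 above, and Sox6, which represses embryonic globin, fell by 0.44. In the cardiomyocyte list, 1 of 12 rose, Myl4 by 0.23, and 2 fell, Nkx2-5 by 0.95 and Actn2 by 0.35 on the log2 scale. Against heterozygous hearts, where 13.6% of all genes were called and 6.87% as higher, none of the 12 was called higher and 4 were called lower, and 2 of the 12 differences were positive. The Cre driver is built on the Nkx2-5 gene, and its part in that value was not tested. In the endothelial and endocardial list of 10 genes, Emcn rose by 0.26, and Npr3 and Kdr fell by 0.39 and 0.43. Only 1 of the 10 differences, that of Emcn, was positive, and the median was -0.17.

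**Figure D5:**
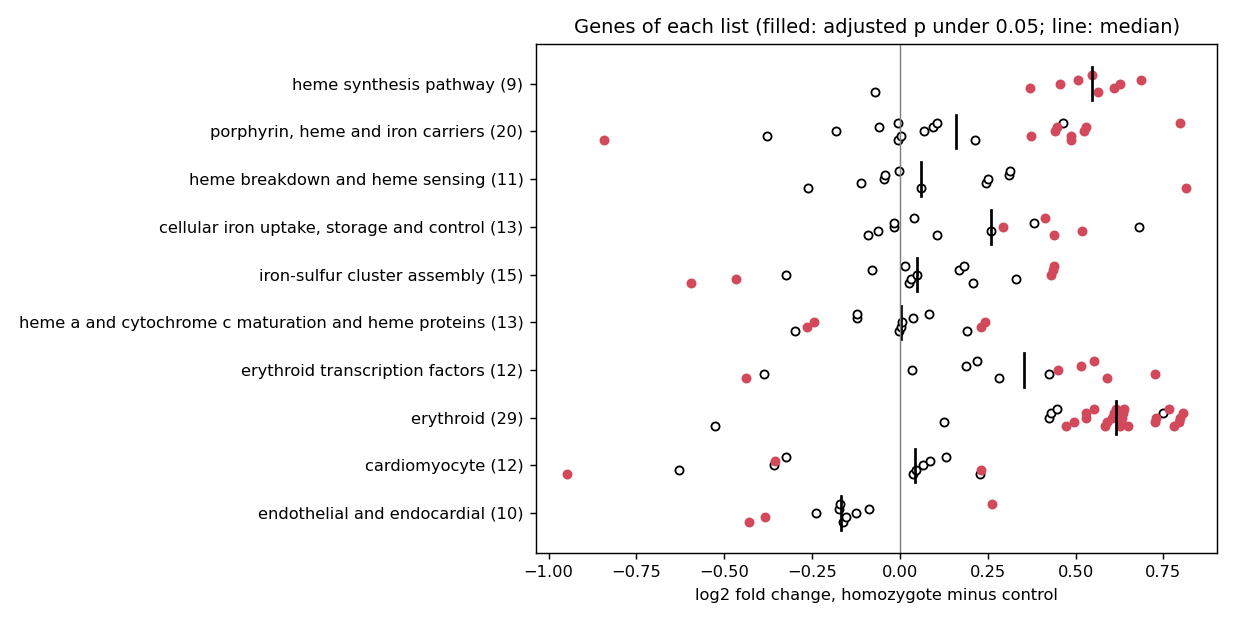
Log2 fold change between homozygous and control hearts (x axis) of every gene tested in 10 lists, those of macrophage, megakaryocyte and liver markers not drawn; points are genes, filled where the adjusted p was under 0.05 in limma, and the vertical line is the list's median. The heme synthesis and erythroid lists have medians of 0.55 and 0.62, and the other lists drawn have medians from -0.17 to 0.35.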

How the data were processed

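Hearts were pooled by genotype and poly(A) RNA was sequenced. The deposited table held 1 column per library with a signal on the scale of reads per 1000000: by its steps, the authors' whole reads plus 0.5, divided by a library size adjusted by a TMM factor. Whole reads were recovered for 100% of values (within 0.01 of a read). Per the labels, the submitters' processing notes name cutadapt 1.6.1, RSEM 1.20, Bowtie2 0.12.7 and limma, and NCBIM37; the study's methods name Ensembl gene build 65. Genes were placed with GENCODE M1 (13987 of 14011). The main test was limma 3.58.1 with a trend on log2(value + 0.5) over all 9 libraries, R 4.3.3, with Benjamini-Hochberg adjustment over all 14011 genes, and adjusted p under 0.05 was called. Fold changes are on that scale, which understates those of low genes. edgeR 4.0.16 and DESeq2 1.42.0 on recovered reads were alternatives; the table's unit was not counts, so limma stayed the main test. On simulated data with 14011 genes for the homozygous and control comparison, and among changed genes with a mean of at least 10, the limma fit called 83.3% of 66 changed by 0.6 on the log2 scale and 100% of 70 changed by 1.

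Nothing says that libraries came from separate litters, and p-values measure the spread between pools. No pair of replicates agreed within sampling noise. Single ratios were tested with two-sided exact permutation tests (scipy 1.17.1). Every member is named; from each list, genes called between homozygous and control hearts, at most 6 by adjusted p, and the 5 genes most like Alas2 and Alas1 (0 sample columns were left unmatched). Members and lists were chosen with earlier results of these data known, and a porphyrin term was among those the study drew from these libraries, so the members' direction is not independent evidence. Levels between genes were compared per kilobase of exon, with the exons of all annotated transcripts of a gene joined. Copies were sought with blastn 2.17.0. None of the 9 members had a near-identical copy over most of its exonic length. Some genes of the lists are not reported here by name. Not in the table and not tested were Tspo2, Steap4, Cygb, Aif1, C1qa and Ahsp.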

Additional observations from a re-analysis of the deposited data

How the results depend on the processing

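Between homozygous and control hearts, 8 members passed; 4 did at an adjusted p under 0.01, 3 in limma without a trend, 0 with the erythroid marker mean as covariate, and 4 to 8 when 1 library was left out (4 when the 6698891-read control library or homozygous replicate 3 was dropped, 5 when the 9654014-read control library was). The number of genes called, 2133, became 858, 1196 and 367 under the first 3 of these settings and 1049 to 2084 with 1 library left out, lowest when the 6698891-read control library was dropped. With 6 members called each, DESeq2 on recovered reads and a fit with the exonic length trend removed lost Alas2 and Slc25a38. Between homozygous and heterozygous hearts, members called became 5 without a trend and 0 with the covariate, and 7 to 8 with 1 library left out; genes called, 1901, became 722 at the stricter threshold, 1063 without a trend, 53 with the covariate and 1023 to 1859 with 1 library left out. Between heterozygous and control hearts, genes called, 20, became 40 in DESeq2, 13 at the stricter threshold, 10 without a trend and 13 to 25 with 1 library left out, and no member passed under any setting. The cause of these shifts was not tested.

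No log2 difference of a member that passed changed sign, except Alas2 between homozygous and heterozygous hearts with the covariate (-0.0042). Between heterozygous and control hearts the covariate turned the signs of Alas2 (0.013), Alad (0.0086), Uros (0.098), Urod (0.065), Ppox (0.014), Fech (0.080) and Slc25a38 (0.020), and with 1 library left out the values ran from -0.24 to 0.031 for Alad, -0.20 to 0.049 for Fech, -0.14 to 0.034 for Ppox, -0.13 to 0.088 for Slc25a38, -0.20 to 0.036 for Urod and -0.12 to 0.081 for Uros. Relative to erythroid markers, quantile normalization moved the homozygous minus control difference of Cpox to 0.036, Fech to 0.018, Urod to 0.085, Ppox to -0.0016, Slc25a38 to -0.097, Alad to 0.20, Alas2 to 0.069 and Uros, then without overlap, to 0.17, and made the libraries overlap for Alas1 against control and Fech against heterozygotes. The numbers in the column names do not pair the libraries: same-numbered libraries had correlations of deviations from -0.14 to 0.13. With these numbers as a replicate block, 1756, 1553 and 15 genes and 8, 8 and 0 members were called. Slc25a38 and Alas1 had the fewest reads, 124 to 367 and 148 to 332 a library.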
